A study of Homo sapiens with 6 samples.

Results

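A set of 10 genes of the metalloproteinase system was followed in SW480 cells with and without knockdown of PCYT2, the enzyme that makes CDP-ethanolamine for the synthesis of phosphatidylethanolamine. They were 3 matrix metalloproteinases (MMP7, MMP14 and MMP15), 3 tissue inhibitors of metalloproteinases (TIMP1, TIMP2 and TIMP3) and 4 ADAM genes (ADAM9, ADAM10, ADAM15 and ADAM17), found by symbol through the GENCODE name of each Ensembl identifier; the set was proposed with earlier results of these data known. All 10 were among the 19746 genes listed, and 9 were among the 12756 that reached the expression limit for testing, a mean of 0.5 FPKM (fragments scaled for transcript length and library size). MMP7 was below that limit.

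SW480 is a human colorectal cancer line with epithelial morphology. The study sequenced RNA to look for mechanisms behind the suppression of metastasis by PCYT2 in colorectal cancer. There were 3 groups with 2 libraries each: shNT, a nontargeting hairpin, and shPcyt2-1 and shPcyt2-2, a pair of hairpins against PCYT2. All 3 groups shared the parental line. Per the study's methods, knockdown hairpins were delivered by lentivirus from pLKO.1-TRC and cells were selected with puromycin, so the libraries come from infected populations and each hairpin is a model of its own. No source says whether the 2 libraries of a group came from separate cultures, and p-values measure only the spread between these libraries, which may be technical. The tables give no read counts, so sequencing depth is unknown. Summed FPKM ranged from 396467 to 402612 per library over 18806 to 19209 identifiers.

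As background, matrix metalloproteinases cut extracellular matrix and cell surface proteins and are made as inactive precursors whose propeptide is removed, often by furin-like convertases. MMP14 and MMP15 sit in the plasma membrane, whereas MMP7 is secreted by epithelial cells. ADAM proteases are membrane-anchored and release the outer parts of other membrane proteins, a step called shedding. ADAM17 releases TNF and several EGF receptor ligands, and ADAM10 cuts Notch receptors and E-cadherin. TIMPs bind the active site of these enzymes. TIMP3 is bound to matrix and inhibits ADAM17, and TIMP2 also bridges MMP14 to the precursor of MMP2.

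PCYT2 itself was measured at 11.6 and 13.8 FPKM in the shNT libraries, 7.11 and 7.36 FPKM with shPcyt2-1, and 6.71 and 6.18 FPKM with shPcyt2-2. No knockdown library reached the lower shNT library. All differences are given as differences in log2(FPKM + 1), a scale that understates changes of low genes, with standard errors and Benjamini-Hochberg adjusted p from limma over all tested genes. PCYT2 was lower by this measure with shPcyt2-1 (-0.73 ± 0.10, adjusted p = 0.00205) and with shPcyt2-2 (-0.88 ± 0.10, adjusted p = 0.00261), and the hairpins did not differ past the test (-0.15, 95% limits -0.37 to 0.08).

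Both hairpins lowered PCYT2 transcript. With shPcyt2-1, MMP14, ADAM9, ADAM10 and ADAM17 rose and TIMP2 and TIMP3 fell against shNT. With shPcyt2-2, TIMP1, TIMP3 and ADAM9 rose and MMP14 fell. ADAM9 was the gene called higher with each hairpin, and MMP14 and TIMP3 were called in opposite directions. MMP15 and ADAM15 passed no test. The plot of levels by library shows all 10 genes.

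**Figure D1:**
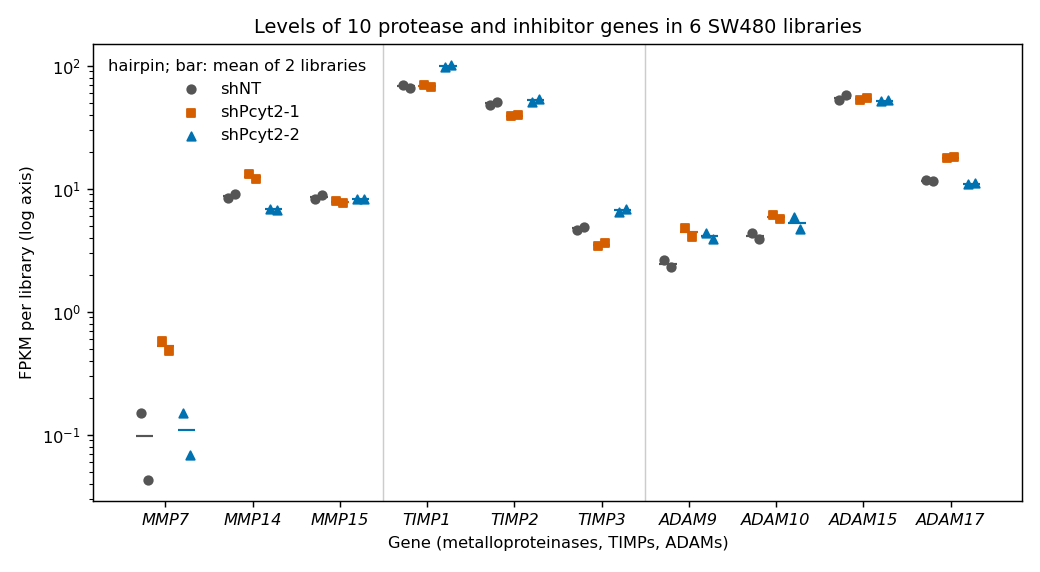
Level of each of the 10 genes in the 6 libraries, in FPKM on a log axis, with points for single libraries and bars for the mean of the 2 libraries of a group. MMP14 and ADAM17 sit highest in the shPcyt2-1 libraries, TIMP1 and TIMP3 highest in the shPcyt2-2 libraries, and ADAM9 is lowest in the shNT libraries.

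In shNT cells the order of the levels in FPKM, which are per length, ran from TIMP1 (67.9 ± 2.68, SD, n = 2) through ADAM15 (55.2 ± 3.60) and TIMP2 (49.5 ± 2.04) to ADAM17 (11.6 ± 0.156), MMP14 (8.74 ± 0.518), MMP15 (8.61 ± 0.480), TIMP3 (4.76 ± 0.150), ADAM10 (4.13 ± 0.334), ADAM9 (2.47 ± 0.227) and MMP7 (0.0972 ± 0.0768). MMP14 and MMP15 overlapped, and every other pair of neighbours in this order was apart in these libraries. TIMP1 stood at percentile 92.9 of the tested genes in shNT cells, where the median gene had 6.89 FPKM, and ADAM9 at percentile 25.4. TIMP1, ADAM15 and TIMP2 thus made up the top of the order, with a gap to ADAM17. With shPcyt2-1, TIMP3 dropped below ADAM10 and ADAM9 in the order. With shPcyt2-2, TIMP2 and ADAM15 overlapped, as did MMP14 and TIMP3.

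Promoter sequences are shown so that genes moving in the same direction can be set side by side. They are those of the genes whose levels differed most between the groups, among the genes with an entry. Each is the 250 bases before the RefSeq start (GRCh38.p14), written 5′ to 3′ on the strand of the gene, and 8 of the 10 genes had an entry that was used. TIMP2 and ADAM9 are not shown. The RefSeq start can differ from the end of the gene span given below for each gene. Every window printed here reaches into that span, and the window of ADAM17 lies wholly inside it. Capitals mark matches, on either strand, to an AP-1 site (TGANTCA), a TCF/LEF site (CTTTGA), a TEAD site (GGAATG), a GC box (GGGCGG) and a TATA box (TATAAA). The regions are chr11:102530748-102530997 (minus strand) for MMP7, chr14:22836335-22836584 (plus) for MMP14, chr2:9555831-9556080 (minus) for ADAM17, chrX:47582186-47582435 (plus) for TIMP1 and chr22:32801455-32801704 (plus) for TIMP3.
MMP7: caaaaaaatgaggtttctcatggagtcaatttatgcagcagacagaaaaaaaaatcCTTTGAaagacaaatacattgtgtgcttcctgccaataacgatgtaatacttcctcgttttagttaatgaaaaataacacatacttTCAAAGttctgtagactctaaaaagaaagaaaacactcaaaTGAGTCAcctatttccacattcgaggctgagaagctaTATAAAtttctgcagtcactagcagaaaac
MMP14: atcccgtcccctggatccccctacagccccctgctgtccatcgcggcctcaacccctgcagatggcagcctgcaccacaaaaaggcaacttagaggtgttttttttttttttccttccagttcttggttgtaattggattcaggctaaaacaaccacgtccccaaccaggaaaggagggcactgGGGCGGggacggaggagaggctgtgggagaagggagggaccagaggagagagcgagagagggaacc
ADAM17: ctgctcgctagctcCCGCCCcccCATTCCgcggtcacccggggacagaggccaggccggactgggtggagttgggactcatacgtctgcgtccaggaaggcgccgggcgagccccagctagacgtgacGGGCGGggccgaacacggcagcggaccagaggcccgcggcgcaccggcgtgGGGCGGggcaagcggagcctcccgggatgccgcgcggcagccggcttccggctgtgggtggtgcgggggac
TIMP1: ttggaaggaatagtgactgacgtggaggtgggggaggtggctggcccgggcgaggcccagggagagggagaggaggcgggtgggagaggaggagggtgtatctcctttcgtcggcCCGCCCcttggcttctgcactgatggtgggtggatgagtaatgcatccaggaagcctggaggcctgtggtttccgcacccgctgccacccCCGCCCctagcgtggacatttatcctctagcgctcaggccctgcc
TIMP3: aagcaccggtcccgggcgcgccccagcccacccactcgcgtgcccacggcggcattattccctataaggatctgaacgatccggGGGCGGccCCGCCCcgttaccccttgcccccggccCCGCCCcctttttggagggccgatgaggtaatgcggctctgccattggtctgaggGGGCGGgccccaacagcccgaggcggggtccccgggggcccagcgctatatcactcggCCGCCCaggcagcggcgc

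The MMP7 promoter held an AP-1 match (TGAGTCA) 67 to 61 bases before the start, 2 TCF/LEF matches and a TATA box 30 to 25 bases before the start, and its GC content was 33.6%. The other 7 promoters held GC boxes, with 1 in MMP14, 3 in ADAM17, 2 in TIMP1 and 5 in TIMP3, and that of ADAM17 also held a TEAD match 227 to 222 bases before the start. None of the matches overlapped another. Of 35116 promoters of the same length, 6.57% held the AP-1 letters, 11.2% the TCF/LEF letters, 11.9% the TEAD letters, 42.6% a GC box and 10.7% the TATA letters. A match of letters is a description of the window only.

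MMP14 (ENSG00000157227, GRCh38 chromosome 14, 22836557 to 22849027, plus strand) encodes MT1-MMP, the membrane collagenase that activates the MMP2 precursor. Its levels were 8.38 and 9.11 FPKM in shNT, 13.1 and 12.0 FPKM with shPcyt2-1 and 6.81 and 6.77 FPKM with shPcyt2-2. The 3 groups did not overlap, with shPcyt2-1 on top and shPcyt2-2 at the bottom. MMP14 rose with shPcyt2-1 (0.48 ± 0.09, adjusted p = 0.00617) and fell with shPcyt2-2 (-0.32 ± 0.09, adjusted p = 0.0455). Without shPcyt2-1 replicate 1 the rise was 0.42 and its call was lost. The fall stayed at -0.32 but lost its call with no expression limit (adjusted p = 0.0962), no variance trend (adjusted p = 0.0587) and identical rows not merged (adjusted p = 0.0545). Its call was also lost in 5 of the 6 fits that left out a library, at differences of -0.27 to -0.33.

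MMP15 (ENSG00000102996, chromosome 16, 58025566 to 58046901, plus strand), the second membrane-type enzyme, had 8.27 and 8.95 FPKM in shNT, 8.01 and 7.70 FPKM with shPcyt2-1 and 8.22 and 8.18 FPKM with shPcyt2-2. The knockdown libraries lay just below the shNT libraries. The difference was -0.12 with shPcyt2-1 (95% limits -0.31 to 0.08, adjusted p = 0.330) and -0.06 with shPcyt2-2 (95% limits -0.26 to 0.13, adjusted p = 0.660). Its sign turned when a trend with GC content and length was removed.

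MMP7 (ENSG00000137673, chromosome 11, 102520508 to 102530753, minus strand), matrilysin, had 0.151 and 0.0429 FPKM in shNT, 0.576 and 0.483 FPKM with shPcyt2-1 and 0.151 and 0.0686 FPKM with shPcyt2-2. Both shPcyt2-1 libraries were above all the others, and the shPcyt2-2 libraries overlapped shNT. These levels are at the bottom of the table and no read number stands behind them. In the fit of all 19746 listed genes without an expression limit, MMP7 was 0.48 ± 0.07 higher with shPcyt2-1 (adjusted p = 0.0275) and differed by 0.02 ± 0.07 with shPcyt2-2 (adjusted p = 0.939).

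Among the inhibitors, TIMP1 (ENSG00000102265, chromosome X, 47582313 to 47586789, plus strand), a secreted inhibitor of most soluble matrix metalloproteinases, had 69.8 and 66.0 FPKM in shNT, 69.5 and 67.5 FPKM with shPcyt2-1 and 97.1 and 101.9 FPKM with shPcyt2-2. Only the shPcyt2-2 libraries stood apart. TIMP1 rose with shPcyt2-2 (0.54 ± 0.06, adjusted p = 0.00261) and had a difference of 0.01 with shPcyt2-1 (95% limits -0.13 to 0.15, adjusted p = 0.904). Its call with shPcyt2-2 was kept under every alternative run.

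TIMP2 (ENSG00000035862, chromosome 17, 78852977 to 78925387, minus strand) had 48.1 and 51.0 FPKM in shNT, 38.7 and 39.7 FPKM with shPcyt2-1 and 51.2 and 53.5 FPKM with shPcyt2-2. The shPcyt2-1 libraries were the low ones. TIMP2 fell with shPcyt2-1 (-0.33 ± 0.07, adjusted p = 0.00819), a call lost without shPcyt2-1 replicate 1, where the difference was -0.31. The difference with shPcyt2-2 was 0.08 (95% limits -0.07 to 0.23, adjusted p = 0.442). Exons of TIMP2 share 198 bases with CEP295NL on the same strand, a gene with a mean of 0.277 FPKM.

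TIMP3 (ENSG00000100234, chromosome 22, 32801701 to 32863043, plus strand) had 4.65 and 4.86 FPKM in shNT, 3.43 and 3.59 FPKM with shPcyt2-1 and 6.50 and 6.90 FPKM with shPcyt2-2. The 3 groups were apart, in the reverse order of MMP14. TIMP3 fell with shPcyt2-1 (-0.35 ± 0.09, adjusted p = 0.0244) and rose with shPcyt2-2 (0.42 ± 0.09, adjusted p = 0.0237). Each call was lost with no expression limit (adjusted p = 0.0535 and 0.0750) and in 4 of the 6 fits that left out a library, with the direction kept.

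ADAM17 (ENSG00000151694, chromosome 2, 9488486 to 9556732, minus strand), the TNF-converting enzyme, had 11.7 and 11.5 FPKM in shNT, 17.7 and 18.2 FPKM with shPcyt2-1 and 10.9 and 11.1 FPKM with shPcyt2-2. The shPcyt2-1 libraries were the high ones. ADAM17 rose with shPcyt2-1 (0.58 ± 0.07, adjusted p = 0.00160), a call kept under every alternative run, and differed by -0.08 with shPcyt2-2 (95% limits -0.25 to 0.09, adjusted p = 0.515). With a trend over GC content and length taken out, the rise was 0.40 (adjusted p = 0.0109). The difference with shPcyt2-2 was then -0.27 (adjusted p = 0.0624). Its exons share 1323 bases with IAH1 on the opposite strand, and the sources do not say whether reads were counted by strand, so the levels of the pair are uncertain. IAH1 had 17.9 and 17.1 FPKM in shNT, 19.4 and 20.8 FPKM with shPcyt2-1 and 19.3 and 19.7 FPKM with shPcyt2-2. Its part in the ADAM17 values was not tested.

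ADAM9 (ENSG00000168615, chromosome 8, 38996869 to 39105144, plus strand), a membrane protease with a disintegrin domain, had 2.63 and 2.31 FPKM in shNT, 4.77 and 4.06 FPKM with shPcyt2-1 and 4.34 and 3.88 FPKM with shPcyt2-2. The lowest of the 4 knockdown values exceeded the higher shNT value. ADAM9 rose with shPcyt2-1 (0.64 ± 0.11, adjusted p = 0.00503) and with shPcyt2-2 (0.56 ± 0.11, adjusted p = 0.0173). The call with shPcyt2-2 was lost with no expression limit (0.56, adjusted p = 0.0850), without shNT replicate 2 (0.49) and without shPcyt2-2 replicate 1 (0.49). Taking out a trend over GC content and length left the rise with shPcyt2-1 at 0.46 (adjusted p = 0.00675). The values of ADAM9 are also listed unchanged under a second identifier, and the pair was counted as 1 gene.

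ADAM10 (ENSG00000137845, chromosome 15, 58588807 to 58749978, minus strand), the main sheddase of Notch receptors, had 4.36 and 3.89 FPKM in shNT, 6.08 and 5.67 FPKM with shPcyt2-1 and 5.87 and 4.71 FPKM with shPcyt2-2. Knockdown values exceeded those of shNT throughout, with 1 shPcyt2-2 library near them. ADAM10 rose with shPcyt2-1 (0.42 ± 0.12, adjusted p = 0.0267). The call was lost with no expression limit (0.42, adjusted p = 0.0928) and in 3 of the 6 fits that left out a library (0.36 to 0.47). With a trend over GC content and length taken out, the rise was 0.24 (adjusted p = 0.0393). The difference with shPcyt2-2 was 0.29 (95% limits 0.03 to 0.55 before adjustment, adjusted p = 0.124). Leaving out shPcyt2-2 replicate 1 gave 0.16, leaving out its replicate 2 gave 0.42, and taking out the trend gave 0.10.

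ADAM15 (ENSG00000143537, chromosome 1, 155050566 to 155062775, plus strand), an ADAM that also binds integrins, had 52.7 and 57.8 FPKM in shNT, 52.7 and 54.7 FPKM with shPcyt2-1 and 52.1 and 52.2 FPKM with shPcyt2-2. The levels were close in all 6 libraries. The difference was -0.04 with shPcyt2-1 (95% limits -0.19 to 0.11, adjusted p = 0.693) and -0.08 with shPcyt2-2 (95% limits -0.23 to 0.07, adjusted p = 0.455).

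In all, 6 of the 9 tested genes were called with shPcyt2-1, 4 higher and 2 lower, beside 26.7% of all tested genes (16.5% higher and 10.1% lower). With shPcyt2-2, 4 of the 9 were called, 3 higher and 1 lower, beside 12.4% of all tested genes (7.69% higher and 4.74% lower). The median difference of the 9 was 0.01 with shPcyt2-1 and 0.08 with shPcyt2-2, and that of all tested genes was 0.07 and 0.04. Libraries did not overlap shNT for 7 of the 9 genes with shPcyt2-1, beside 69.0% of all genes, and for 9 of the 9 with shPcyt2-2, beside 57.5%. The hairpins share the same shNT libraries, so these are not independent comparisons. Over all genes, 2109 were higher and 1291 lower with shPcyt2-1, and 981 higher and 604 lower with shPcyt2-2. After median-ratio scaling of the libraries these splits became 1420 higher and 1758 lower, and 764 higher and 880 lower, while the counts of the 9 genes called stayed at 4 higher and 2 lower and at 3 higher and 1 lower.

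**Figure D2:**
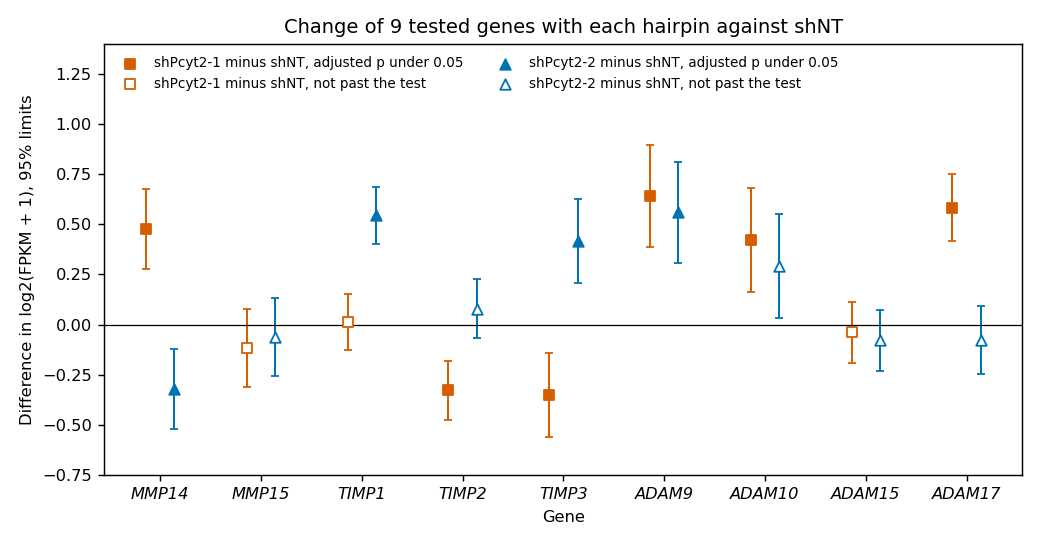
Difference from shNT in log2(FPKM + 1) of the 9 tested genes with each hairpin, with 95% limits not adjusted for multiple tests, and filled symbols for an adjusted p under 0.05. MMP14 and TIMP3 lie on opposite sides of 0 with the hairpins, and ADAM9 lies at 0.64 and 0.56.

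Without shPcyt2-1 replicate 1, ADAM9 and ADAM17 were the genes still called with shPcyt2-1. Without shNT replicate 2 or shPcyt2-2 replicate 1, TIMP1 was the gene still called with shPcyt2-2.

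The direct comparison of the hairpins tests their difference without shNT. MMP14 (-0.80 ± 0.09, adjusted p = 0.000487) and ADAM17 (-0.66 ± 0.07, adjusted p = 0.000532) were lower with shPcyt2-2 than with shPcyt2-1. TIMP1 (0.53 ± 0.06, adjusted p = 0.000591), TIMP2 (0.41 ± 0.07, adjusted p = 0.00251) and TIMP3 (0.77 ± 0.09, adjusted p = 0.000690) were higher. All 3 inhibitors were thus on the higher side. These were 5 of the 9 tested genes, 3 higher and 2 lower, beside 27.1% of all tested genes (12.9% higher and 14.2% lower), and the 5 calls were kept under every alternative run, including each library left out. ADAM9 (-0.08, 95% limits -0.34 to 0.17), ADAM10 (-0.13, 95% limits -0.39 to 0.13), ADAM15 (-0.04, 95% limits -0.19 to 0.11) and MMP15 (0.06, 95% limits -0.14 to 0.25) did not pass the test.

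**Figure D3:**
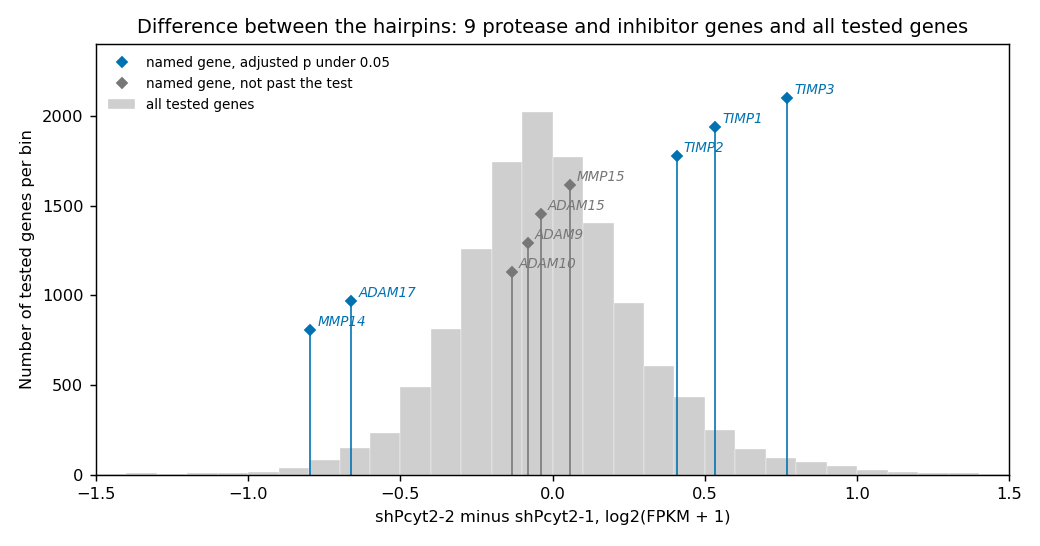
Histogram of the difference shPcyt2-2 minus shPcyt2-1 in log2(FPKM + 1) over the 12756 tested genes in grey, with 9 genes marked by lines at their differences (the height of a mark has no meaning). The 3 TIMP genes lie to the right, MMP14 and ADAM17 to the left, and the other 4 near 0; 16 genes lie beyond the left edge and 19 beyond the right.

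When the 4 knockdown libraries were pooled against shNT, none of the 9 genes passed limma's adjusted test, beside 0.00784% of all tested genes. PCYT2, the target of the hairpins, did not pass it either (-0.80 ± 0.11, adjusted p = 0.115). This fit takes both hairpins as 1 condition, so differences between the hairpins add to its spread. The lack of calls is thus no sign that the 9 genes were unchanged. At an unadjusted p under 0.05 there were 2 of the 9, ADAM9 (0.60 ± 0.11, adjusted p = 0.129) and ADAM10 (0.36 ± 0.12, adjusted p = 0.215), beside 16.7% of all tested genes. It was 1 of the 9 without shNT replicate 2, where all genes at this level numbered 637 in place of 2128, and 1 of the 9 with the trend over GC content and length taken out. With that trend taken out, all genes at this level numbered 1472. The pooled values were 0.08 ± 0.27 for MMP14 and 0.03 ± 0.26 for TIMP3, genes for which the hairpins lay on opposite sides of shNT. ADAM9 and ADAM10 in all 4 knockdown libraries were above, and MMP15 below, both shNT libraries, which makes 3 of the 9 without overlap beside 30.2% of all genes.

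Summed over the 3 TIMP genes, transcript levels were 122.6 and 121.9 FPKM in shNT, 111.7 and 110.8 FPKM with shPcyt2-1 and 154.7 and 162.4 FPKM with shPcyt2-2. The 7 protease genes summed to 88.2 and 93.6 FPKM in shNT, 102.9 and 102.7 FPKM with shPcyt2-1 and 88.3 and 86.9 FPKM with shPcyt2-2. The ratio of the sums was 1.35 ± 0.0617 (SD, n = 2) in shNT, 1.08 ± 0.00480 with shPcyt2-1 and 1.81 ± 0.0821 with shPcyt2-2, and the groups did not overlap. TIMP1 made up 54.2% to 62.8% of the inhibitor sum and ADAM15 made up 51.2% to 61.7% of the protease sum, so these genes weigh most. Sums of transcripts were described without a test.

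**Figure D4:**
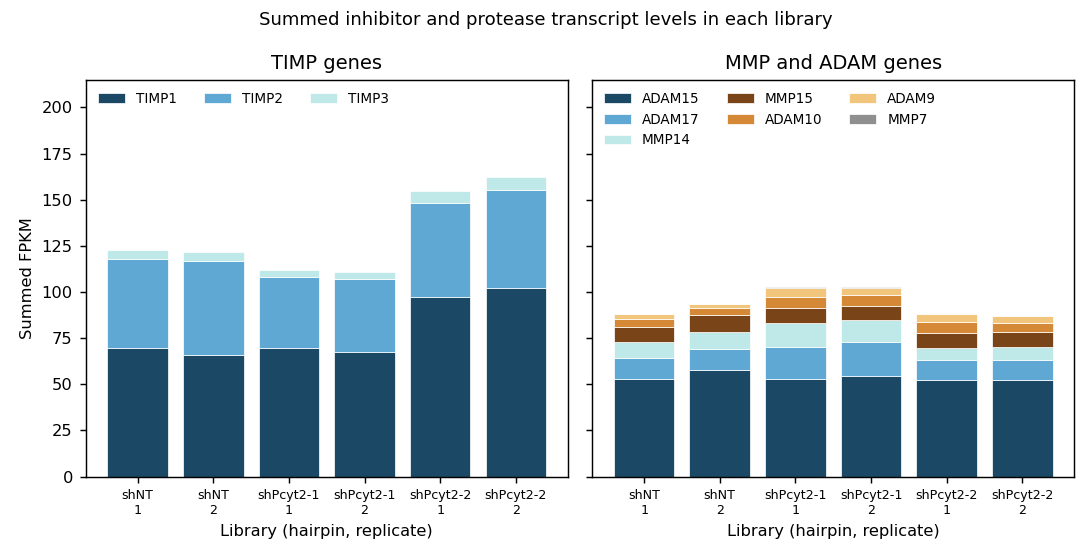
Stacked FPKM of the 3 TIMP genes (left) and the 7 MMP and ADAM genes (right) in each of the 6 libraries, with axes from 0. The inhibitor stack is tallest in the shPcyt2-2 libraries (154.7 and 162.4 FPKM) and the protease stack in the shPcyt2-1 libraries (102.9 and 102.7 FPKM).

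The counts called in each of the following lists stand beside 26.7% of all tested genes called with shPcyt2-1 and 12.4% with shPcyt2-2. Of 20 other matrix metalloproteinase genes looked for, 13 were listed and 4 reached the limit. None of MMP11, MMP17 and MMP28 passed limma's adjusted test with shPcyt2-2. MMP11, stromelysin-3, had 4.03 and 5.33 FPKM in shNT, 3.29 and 3.12 FPKM with shPcyt2-1 and 5.93 and 7.16 FPKM with shPcyt2-2. It fell with shPcyt2-1 (-0.42 ± 0.13, adjusted p = 0.0430) and was higher with shPcyt2-2 than with shPcyt2-1 (0.84 ± 0.13, adjusted p = 0.00232). MMP17 (-0.41 ± 0.12, adjusted p = 0.0388) and MMP28 (-0.35 ± 0.11, adjusted p = 0.0472) also fell with shPcyt2-1. MMP28 was low, with means of 0.873 FPKM in shNT and 0.469 FPKM with shPcyt2-1, the latter under 0.5 FPKM. MMP24, a membrane-type enzyme, had means of 0.300 FPKM in shNT, 1.01 FPKM with shPcyt2-1 and 0.283 FPKM with shPcyt2-2. MMP24 reached the expression limit only through the shPcyt2-1 libraries, so its values are given as a description. The values of MMP11 and MMP28 are each also listed unchanged under another identifier. MMP2, the enzyme that MMP14 activates, had at most 0.157 FPKM in any library, and MMP9 at most 0.169 FPKM; these were picked for their role, outside the rule for named genes.

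Of 13 other ADAM genes, 3 were tested. ADAM8 fell with shPcyt2-1 (-0.42 ± 0.13, adjusted p = 0.0379) and ADAM19 rose with shPcyt2-2 (0.31 ± 0.08, adjusted p = 0.0355). Of 19 ADAMTS genes, which encode secreted relatives with thrombospondin repeats, 6 were tested. ADAMTS8 had 3.43 and 3.27 FPKM in shNT, 0.962 and 1.22 FPKM with shPcyt2-1 and 2.90 and 2.25 FPKM with shPcyt2-2. It fell with shPcyt2-1 (-1.06 ± 0.12, adjusted p = 0.00119). ADAMTS19 rose with shPcyt2-1 (0.51 ± 0.11, adjusted p = 0.00962), and none of the 6 passed the adjusted test with shPcyt2-2. ADAMTS14 was higher with shPcyt2-2 than with shPcyt2-1 (0.41 ± 0.11, adjusted p = 0.0204).

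**Figure D5:**
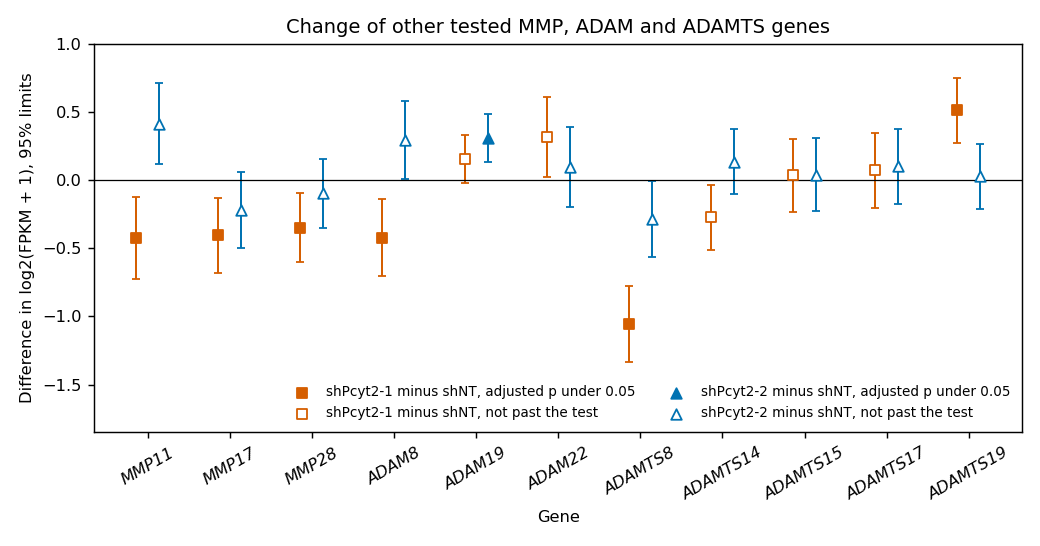
Difference from shNT in log2(FPKM + 1) of 11 other MMP, ADAM and ADAMTS genes with each hairpin, those over the expression limit in at least 2 groups, with 95% limits not adjusted for multiple tests, and filled symbols for an adjusted p under 0.05. ADAMTS8 lies at -1.06 with shPcyt2-1, and ADAM19 is the gene that passed with shPcyt2-2.

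Of 8 other inhibitor genes, 4 were tested. CST3, which encodes the cysteine protease inhibitor cystatin C, had 378.9 and 415.8 FPKM in shNT, 313.2 and 349.3 FPKM with shPcyt2-1 and 602.1 and 598.0 FPKM with shPcyt2-2. The groups were apart in the same order as TIMP3. CST3 fell with shPcyt2-1 (-0.26 ± 0.07, adjusted p = 0.0237) and rose with shPcyt2-2 (0.60 ± 0.07, adjusted p = 0.00267). RECK, a membrane-anchored metalloproteinase inhibitor, rose with shPcyt2-2 (0.46 ± 0.11, adjusted p = 0.0322) from a mean of 0.967 to 1.71 FPKM. So 2 of the 4 were higher and none was lower with shPcyt2-2, and 1 was lower with shPcyt2-1.

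Partners of the ADAM proteases, 12 genes of which all were tested, include the iRhoms that carry ADAM17 to the surface and the tetraspanins that bind ADAM10. With shPcyt2-1, 2 were higher and 1 was lower (26.7% of all tested genes were called), and with shPcyt2-2, 1 was lower (12.4% of all). Between the hairpins, 2 were higher and 4 lower with shPcyt2-2 (27.1% of all). TSPAN5, a tetraspanin of ADAM10, had 19.3 and 19.0 FPKM in shNT, 25.3 and 25.2 FPKM with shPcyt2-1 and 18.4 and 14.9 FPKM with shPcyt2-2. It rose with shPcyt2-1 (0.38 ± 0.10, adjusted p = 0.0196), whereas SH3D19, an adaptor of ADAM proteases, fell (-0.40 ± 0.10, adjusted p = 0.0202). PACSIN3 fell with shPcyt2-2 (-0.56 ± 0.09, adjusted p = 0.00973). RHBDF1, which encodes iRhom1, was higher with shPcyt2-2 than with shPcyt2-1 (0.54 ± 0.14, adjusted p = 0.0220).

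None of the 4 propeptide convertase genes passed limma's adjusted test with either hairpin, and FURIN had a mean of 23.0 FPKM in shNT, 22.9 with shPcyt2-1 and 20.5 with shPcyt2-2. Of 10 genes for partners of matrix metalloproteinases, 2 rose with each hairpin. These were SDC1 (0.45 ± 0.08) and LAMP1 (0.43 ± 0.08) with shPcyt2-1, and the tetraspanins CD9 (0.30 ± 0.05) and CD63 (0.27 ± 0.05) with shPcyt2-2.

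A list of 28 genes held those for proteins that ADAM proteases shed and also EGFR, a receptor of shed ligands. Of these, 25 were tested, with 8 higher and 4 lower with shPcyt2-1 and 2 higher and 3 lower with shPcyt2-2. Of all tested genes, 16.5% were higher and 10.1% lower with shPcyt2-1, and 7.69% higher and 4.74% lower with shPcyt2-2. EREG, epiregulin, a ligand released by ADAM17, had 11.4 and 8.85 FPKM in shNT, 53.2 and 52.1 FPKM with shPcyt2-1 and 12.3 and 12.9 FPKM with shPcyt2-2. The shPcyt2-1 libraries were far above the rest (2.28 ± 0.10, adjusted p = 3.04e-05). EGFR, the receptor, fell with shPcyt2-1 (-0.49 ± 0.10, adjusted p = 0.00883). TGFA, another ligand released by ADAM17, fell with shPcyt2-2 (-0.45 ± 0.08, adjusted p = 0.0110). CXCL16, a membrane chemokine cut by ADAM10, fell with shPcyt2-1 (-0.53 ± 0.08, adjusted p = 0.00233) and with shPcyt2-2 (-0.56 ± 0.08, adjusted p = 0.00483). Transcript levels say nothing of how much protein was shed.

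A list of 17 genes held AP-1, ETS and TCF/LEF family genes, whose products bind motifs found in metalloproteinase promoters. It also held CTNNB1, which belongs to none of these families. Of the 17, 4 were higher and 5 lower with shPcyt2-1, and 1 was lower with shPcyt2-2. FOSL1 (0.51 ± 0.07, adjusted p = 0.00269) and ETS1 (0.55 ± 0.09, adjusted p = 0.00389) rose with shPcyt2-1, and JUND (-0.67 ± 0.09, adjusted p = 0.00183) and ELF3 (-0.60 ± 0.09, adjusted p = 0.00264) fell. The median difference of the 17 was -0.13 with shPcyt2-1 and 0.07 with shPcyt2-2, beside 0.07 and 0.04 for all tested genes.

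For the genes with the widest range of group means, MMP14 and TIMP3, the tested genes of at least 5 FPKM with the nearest centred log2 profile over the 6 libraries were named. For MMP14 they were U2AF1L4, SNHG17 and NMB, at distances of 0.0715, 0.135 and 0.148 (log2 units). For TIMP3 they were HES1, RRAS and FXYD5, at 0.113, 0.114 and 0.135. HES1, a transcriptional repressor induced by Notch, had 9.24 and 9.58 FPKM in shNT, 6.78 and 6.74 FPKM with shPcyt2-1 and 11.5 and 13.0 FPKM with shPcyt2-2. Such nearness over 6 libraries in 3 groups is a description only.

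Markers of cell types were read beside these results, since SW480 should be epithelial and bulk RNA cannot tell fewer cells of a type from less RNA per cell. Epithelial markers (9 of 9 listed, 8 tested) summed to between 8212 and 8771 FPKM in the shNT and shPcyt2-1 libraries and to 6259 and 6556 FPKM with shPcyt2-2, with KRT8 the most abundant and KRT20 at or near 0. KRT18 (-0.45 ± 0.06), KRT19 (-0.44 ± 0.06) and KRT8 (-0.41 ± 0.06) fell with shPcyt2-2, and these 3 keratins make up nearly all of the sum, at means of 2459, 775 and 2804 FPKM with shPcyt2-2. The other 5 tested epithelial markers did not pass with shPcyt2-2, with differences of 0.28 for CDX1, 0.19 for CDH1, 0.14 for VIL1, 0.11 for EPCAM and -0.06 for CDX2, and the median of the 8 was 0.03. CDX2 fell with shPcyt2-1 (-0.65 ± 0.08). Their part in the protease and inhibitor values was not tested. Fibroblast markers, 6 of 8 listed and 2 tested, summed to 2.25 and 2.45 FPKM in shNT. The sums were 3.62 and 4.11 FPKM with shPcyt2-1 and 3.79 and 3.59 FPKM with shPcyt2-2. They came mostly from COL1A1, the most abundant in the shNT and shPcyt2-2 libraries (1.03 to 1.68 FPKM), and LUM, the most abundant with shPcyt2-1 (2.17 and 2.24 FPKM). LUM was higher with shPcyt2-1 (0.81 ± 0.11, adjusted p = 0.00192), whereas COL1A1, the other one tested, did not pass (0.18, adjusted p = 0.272). PDGFRB, below the expression limit, went the other way with shPcyt2-1. It had 0.364 and 0.507 FPKM in shNT, 0.225 and 0.309 FPKM with shPcyt2-1 and 0.795 and 0.739 FPKM with shPcyt2-2. COL3A1 and FAP were listed in no library, and DCN had at most 0.0586 FPKM. Immune markers, 5 of 6 listed, summed to between 19.1 and 25.5 FPKM, mostly from CD68, and PTPRC was listed in no library. Endothelial markers, 4 of 4 listed, summed to at most 0.769 FPKM, with CDH5 the most abundant.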

How the data were processed

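RNA of 6 SW480 libraries was sequenced, 2 in each of the groups shNT, shPcyt2-1 and shPcyt2-2, grouped by their labels. The authors deposited 1 table per library of FPKM values per Ensembl identifier, which list only genes above 0 and hold no read counts. The labels name a pair of library kits without saying which library each made. The aligner, annotation and strand setting are not given in the sources used here, and the submitters' processing notes list the builds GRCh38, GRCm38 and mm10 with no role. Depth is unknown, so counting error cannot be given.

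The 6 tables were joined over 21539 identifiers, of which 19504 were named from GENCODE release 29. Rows were summed for 115 repeated identifiers, and 999 groups of rows with identical values, above 0 in at least 3 libraries, were counted as 1 gene each, which left 19746 genes. Genes with a mean of at least 0.5 FPKM (12756) were tested on log2(FPKM + 1) with limma 3.58.1 in R 4.3.3, with a mean-variance trend, two-sided, and Benjamini-Hochberg adjustment over all tested genes at a threshold of 0.05. All 3 groups entered the fit of single hairpins, and 4 knockdown against 2 shNT libraries the pooled fit. The study's methods name a count-based package; limma was used because the values are FPKM. The code was tested on simulated data.

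The members and gene lists were chosen with earlier results of these data known. Named were all 10 members, PCYT2, from each list up to 4 genes with the largest difference among those past the test in any contrast of the fit of 3 groups (otherwise up to 2 with the highest mean), and the 3 nearest profiles of each of the 2 members with the widest range of group means; other exceptions are stated. Cell type markers, and genes overlapping a member, were also named outside this rule, after their values were seen, to give the most abundant, near 0 or unlisted ones. Alternatives were another pseudocount (0.1), no expression limit or a limit of 1 FPKM, median-ratio scaling, no variance trend, the replicate number as a block, other handling of repeated and identical rows, each library left out, and, added after seeing the data, removal of a trend with GC content and length.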

Additional observations from a re-analysis of the deposited data

Results flagged for a closer look

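For 5 of the 9 tested genes, the change from shNT differed between the hairpins by limma's test of the difference itself, adjusted over all tested genes. As shPcyt2-2 minus shPcyt2-1 in log2(FPKM + 1), the differences were -0.80 for MMP14 and -0.66 for ADAM17. They were 0.53 for TIMP1, 0.41 for TIMP2 and 0.77 for TIMP3. The same test called 27.1% of all tested genes. PCYT2 itself was 7.11 and 7.36 FPKM with shPcyt2-1 and 6.71 and 6.18 FPKM with shPcyt2-2, and among cell type markers the same test called KRT8 (-0.36), KRT18 (-0.47), KRT19 (-0.50) and LUM (-0.53) lower and CDX1 (0.36) and CDX2 (0.60) higher with shPcyt2-2. The part of these in the differences was not tested. No group has enough libraries for a search for outlying samples.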

How the results depend on the processing

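Across the 9 tested genes of the set in the 4 comparisons, 494 alternative values kept direction and side of the threshold. Another 27 kept direction and lost the call, and 19 changed sign, all of the latter for differences that had not passed the test. Genes outside the set were not followed one by one under the alternatives. The 5 calls of the hairpins' difference held under every alternative run, as did ADAM9 and ADAM17 with shPcyt2-1 and TIMP1 with shPcyt2-2.

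Without an expression limit, all genes called fell to 1831 with shPcyt2-1 and 124 with shPcyt2-2, where 1 of the members was called, and rose to 7 in the pooled comparison; more genes were then tested. Without a variance trend, 1027 genes were called with shPcyt2-2. In the pooled comparison 0 genes were called with a pseudocount of 0.1, with a mean of at least 1 FPKM, or with the replicate block. Median-ratio scaling set the TIMP sum to 125.6 FPKM in shNT and 108.2 with shPcyt2-1, the protease sum to 99.98 with shPcyt2-1, and the differences of TIMP1 with shPcyt2-1 to -0.0671 and of TIMP3 in the pooled comparison to -0.0214. Once a trend with GC content and length was taken out, MMP15 became 0.0523 with shPcyt2-1, 0.0411 with shPcyt2-2, -0.0112 between the hairpins and 0.0467 pooled. ADAM15 became 0.106 with shPcyt2-1, 0.00908 with shPcyt2-2 and 0.0575 pooled, and TIMP3 pooled became -0.0444. By GC content of the longest transcript, ADAM9, ADAM10 and ADAM17 stood at percentiles 12.5, 8.3 and 9.1 of the tested genes. These low-GC ADAM genes kept their signs and calls in this setting. With shPcyt2-1, ADAM9 was at 0.46 from 0.64, ADAM10 at 0.24 from 0.42 and ADAM17 at 0.40 from 0.58. With shPcyt2-2, ADAM10 was at 0.10 from 0.29 and ADAM17 at -0.27 from -0.08. The cause of these shifts was not tested.

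With 1 library left out (the lone library of a group is assumed to vary like the others), members called ranged from 2 to 6 with shPcyt2-1, lowest without shPcyt2-1 replicate 1, and from 1 to 3 with shPcyt2-2, lowest without shNT replicate 2 or shPcyt2-2 replicate 1 (2 without shPcyt2-2 replicate 2). All genes called ranged from 1160 to 3355 with shPcyt2-1, with 1160 without shPcyt2-1 replicate 1, 1735 without shNT replicate 2 and 1848 without shPcyt2-1 replicate 2. With shPcyt2-2 they ranged from 125 to 1892, with 125 without shPcyt2-2 replicate 1, 401 without shNT replicate 2 and 703 without shPcyt2-2 replicate 2. Between the hairpins they ranged from 1674 to 3783, with 1674 and 2080 without shPcyt2-1 replicate 1 or 2 and 2288 and 1989 without shPcyt2-2 replicate 1 or 2, and pooled from 0 to 1. Signs turned within these ranges for TIMP1 (-0.0276 to 0.0517) and ADAM15 (-0.105 to 0.0262) with shPcyt2-1, ADAM9 between the hairpins (-0.176 to 0.0138), and, pooled, MMP14 (-0.0747 to 0.211), TIMP3 (-0.107 to 0.170) and ADAM15 (-0.124 to 0.00625).

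Deviations of libraries with the same replicate number correlated at 0.003, 0.06 and 0.19 between the groups, so the numbers were not taken to pair the samples. With the replicate block, genes called were 3884 with shPcyt2-1, 2029 with shPcyt2-2 and 3869 between the hairpins, and 6, 4 and 5 members. With 2 libraries a group and no read counts, small differences could not be told from spread between libraries.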
